A study of Mus musculus with 6 samples.

Results

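Megakaryocyte and platelet genes were followed in the spleens of mice with transplanted bone marrow. The 9 genes Pf4, Ppbp, Itga2b, Itgb3, Gp1ba, Gp1bb, Gp9, Gp6 and Vwf were chosen by name, and each was found by its symbol among the 40808 gene IDs of the count table. The libraries hold polyadenylated RNA of spleen, which the labels describe as leukaemia cells. One group of 3 libraries (replicates 4, 5 and 6) came from mice without Dox, and another group of 3 (replicates 10, 11 and 12) from mice on Dox. Both groups share the transplant, and Dox is given only under that short name. The labels do not give its dose or duration, the gene it controls, the leukaemia driver, or the strain, age and sex of the mice, and they do not say whether each library is 1 mouse, so p-values measure the spread between these libraries, which may in part be technical.

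Megakaryocytes are very large cells that bud platelets from long cytoplasmic extensions. In mice they sit in the spleen as well as in the bone marrow, and the spleen also stores platelets, which carry mRNA but no nucleus. Platelets stick to a damaged vessel when von Willebrand factor, the product of Vwf, is caught by the GPIb-IX-V receptor (Gp1ba, Gp1bb, Gp9 and Gp5) and when collagen is bound by glycoprotein VI (Gp6). They then aggregate through the fibrinogen receptor, the integrin of Itga2b and Itgb3, and release chemokines such as those of Pf4 and Ppbp from their granules.

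The genes lie on 5 chromosomes of the GRCm38 mouse assembly, the build named in the submitters' processing notes. RefSeq places Ppbp at chr5:90768518-90770063 and Pf4 at chr5:90772435-90773383, both on the plus strand and 2371 bases apart. Itga2b (chr11:102453297-102469883, minus strand), Itgb3 (chr11:104608000-104670476, plus) and Gp1ba (chr11:70639102-70643986, plus) share chromosome 11. Gp9 (chr6:87776131-87779786, plus) and Vwf (chr6:125552948-125686679, plus) share chromosome 6, Gp6 lies at chr7:4362853-4397851 (minus), and Gp1bb at chr16:18620319-18622403 (minus). The RefSeq model of Gp1bb shares 593 bases with that of the neighbouring gene Septin5 on the same strand. In GENCODE the overlap is larger, with Septin5 at chr16:18620502-18629954 and Gp1bb at chr16:18620317-18622403. Septin5 is listed at 0 counts in all 6 libraries, and how reads from the shared stretch were assigned is not given, so the Gp1bb values are uncertain.

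Upstream sequence is shown for 4 genes: Pf4 and Ppbp, neighbours with different fold changes, Gp6, with the largest fold change of the 9, and Gp1ba, the one gene of the 9 that did not pass the test. RefSeq promoter windows (GRCm38.p6, 250 bases before to 50 after the start site) were at hand for 7 of the 9 genes. Each sequence runs 5′ to 3′ on the gene's strand and stops before the first annotated transcript base. Capitals mark AGATAA or TGATAA, words bound by GATA factors, and AGGAAG or CGGAAG, words bound by ETS factors, on either strand; both factor families act in megakaryocytes.
Pf4, chr5:90772185-90772434, plus strand: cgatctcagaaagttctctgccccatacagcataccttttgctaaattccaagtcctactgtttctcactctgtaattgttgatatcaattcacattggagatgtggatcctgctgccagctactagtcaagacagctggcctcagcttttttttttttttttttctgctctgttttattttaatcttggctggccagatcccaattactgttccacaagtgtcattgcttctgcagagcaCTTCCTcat
Ppbp, chr5:90768268-90768517, plus strand: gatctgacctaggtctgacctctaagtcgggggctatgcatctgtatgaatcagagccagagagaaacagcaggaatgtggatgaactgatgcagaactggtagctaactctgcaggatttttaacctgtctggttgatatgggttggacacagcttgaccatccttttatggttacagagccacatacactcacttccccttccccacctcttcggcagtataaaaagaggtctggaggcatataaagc
Gp6, chr7:4397852-4397994, minus strand: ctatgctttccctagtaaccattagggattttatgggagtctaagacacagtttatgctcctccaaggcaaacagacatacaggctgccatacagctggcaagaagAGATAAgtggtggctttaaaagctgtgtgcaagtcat
Gp1ba, chr11:70638872-70639101, plus strand: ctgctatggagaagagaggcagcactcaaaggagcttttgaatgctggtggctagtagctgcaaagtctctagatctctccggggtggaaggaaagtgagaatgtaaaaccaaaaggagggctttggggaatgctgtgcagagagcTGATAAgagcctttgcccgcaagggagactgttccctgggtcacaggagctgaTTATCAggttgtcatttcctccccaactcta

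Over the full windows, 3 of the 7 genes (Gp1ba, Gp6 and Pf4) held a GATA word, against 18.6% of all 32851 promoter windows. An ETS word was present in 5 of the 7 (Gp1ba, Gp1bb, Gp9, Itga2b and Pf4), against 46.5% of all windows. Gp1ba, which did not pass the test between the groups, held 2 GATA words and 1 ETS word, and Ppbp, which did, held none of these words. The Pf4 GATA word and the Gp1ba ETS word lie outside the stretches printed. No matches overlapped one another in these windows, and a match describes letters and not binding.

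Total counts per library were 5541486 to 7729988 without Dox and 6498193 to 8725767 with Dox. Haemoglobin genes took 8.61% to 9.04% of counts without Dox and 14.13% to 15.89% with Dox. The labels do not name the lineage of the leukaemia, and it was not tested here. T cell markers were abundant without Dox. With Dox 10 of 12 were lower and 2 did not pass the test described below, where 22.1% of all tested genes were lower. The summed count of 4 Y-linked genes was 545 to 801 per library in the group without Dox and 0 in the other, and the Xist count was 193 to 324 and 3347 to 5669, so that Dox and the sex of the cells cannot be told apart in any result here. The variation between replicates was wider with Dox (common biological coefficient of variation 0.515 against 0.190).

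The 9 genes were first compared between the groups as a list. Of the 9, 8 rose and 0 fell (edgeR quasi-likelihood test, adjusted p under 0.05 over 14110 genes), where 45.6% of all tested genes passed, 23.6% as higher and 22.1% as lower. That near-even split depends on the scaling: 3324 genes rose and 3114 fell here, against 4257 and 2359 when libraries were scaled by their size only. The median log2 fold change of the 9 genes was 2.50, against 0.07 for all tested genes, and 9.04% of all tested genes had a log2 fold change at or above 2.50. In 8 of the 9 genes each library with Dox lay above each library without Dox, which held for 30.0% of all tested genes. The opposite order held for none of the 9 and for 29.6% of all tested genes, so that groups did not overlap in 59.6% of genes in either direction. All 9 passed the filter on low counts, but only 4 (Pf4, Ppbp, Itgb3 and Gp9) would have passed it on the libraries without Dox alone, so the count describes these genes and is not support for a difference. In bulk tissue more cells of a type and more RNA per cell cannot be told apart.

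Levels are given as normalized CPM, the count as a share of the library after scaling for its composition. Summed over the 9 genes, the level was 79.7, 77.6 and 85.1 CPM in replicates 4, 5 and 6, which had no Dox, and 411.9, 409.0 and 368.5 CPM in replicates 10, 11 and 12, which had it. The groups were far apart, and the mean sum was 4.91 times as high with Dox. An exact permutation test, two-sided, gave p = 0.1, the lowest value that 3 against 3 libraries allows. Without the chemokines Pf4 and Ppbp the sum of the other 7 genes was 21.7 ± 4.8 CPM (SD, n = 3) without Dox and 195.4 ± 5.1 CPM (SD, n = 3) with Dox, 9.01 times as high. The stacked bars of the summed level show both the rise and the change in makeup.

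**Figure D1:**
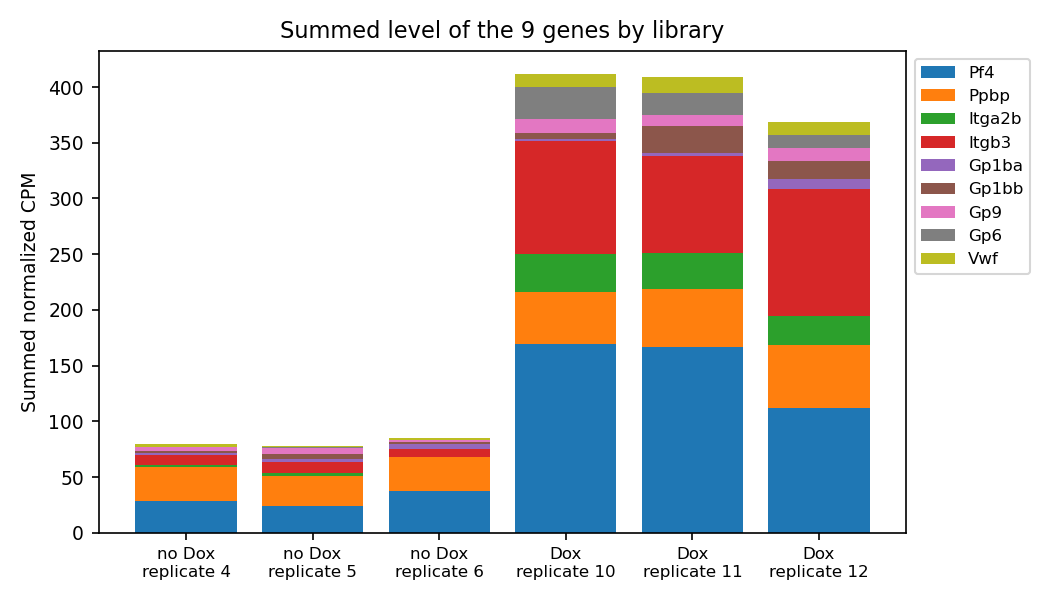
Summed level of the 9 genes in normalized CPM (y axis) for each of the 6 libraries (x axis), with 1 colour per gene. The 3 bars without Dox reach 77.6 to 85.1 CPM and the 3 with Dox 368.5 to 411.9 CPM, and the Ppbp segment makes up less of the bars with Dox.

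The chemokine genes were the most abundant of the 9 without Dox, and both rose. Pf4 encodes platelet factor 4, a heparin-binding chemokine of the platelet granule. It was at 28.9, 23.9 and 37.3 CPM without Dox and at 169.6, 166.8 and 112.4 CPM with Dox. Replicate 12 was the lowest with Dox, yet still above every library without Dox. Pf4 rose by 2.31 ± 0.24 (SE) on the log2 scale (edgeR adjusted p = 5.03e-05). Ppbp encodes the precursor of the neutrophil-attracting chemokine CXCL7. It was at 29.7, 27.0 and 30.5 CPM without Dox and at 46.5, 52.0 and 55.7 CPM with Dox. The groups did not overlap, and the replicates lay closer together than those of Pf4. Ppbp rose by 0.82 ± 0.20 (SE) on the log2 scale (edgeR adjusted p = 0.00767), the smallest change of the 8 genes called. With a trend in transcript length removed from each library, the log2 fold changes were 3.37 for Pf4 and 1.65 for Ppbp, both larger than in the fit without that step. The Ppbp call was lost without replicate 5, at a log2 fold change of 0.70 (edgeR adjusted p = 0.0714), and with no filter on low counts, at 0.68 (adjusted p = 0.0572), while Pf4 kept its call in both fits.

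The 2 chemokine genes were also set against each other. There were 0.975, 0.887 and 1.22 Pf4 counts for each Ppbp count without Dox, and 3.64, 3.21 and 2.02 with Dox. No library with Dox reached down to those without, at a permutation p of 0.1 (exact, two-sided) that is the lowest this design gives and that became 0.3 after Benjamini-Hochberg adjustment over 3 ratios tested. Ppbp made up 34.7% to 37.3% of the summed level of the 9 genes without Dox and 11.3% to 15.1% with Dox. The share of Pf4 overlapped between the groups, 30.8% to 43.8% without Dox and 30.5% to 41.2% with Dox. Neither the ratio nor the shares were worked out with the trend in transcript length removed.

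Both subunits of the fibrinogen receptor rose. Itgb3, the beta subunit, which also pairs with another alpha chain in other cells, was at 8.80, 9.52 and 7.80 CPM without Dox and at 102.1, 87.1 and 114.1 CPM with Dox. The groups were separated by a wide gap, and Itgb3 had the lowest p of the 9 genes (log2 fold change 3.54 ± 0.22 (SE), edgeR adjusted p = 2.88e-06). Itga2b, the alpha subunit and the usual surface marker of the lineage (CD41), was counted 14, 14 and 0 times without Dox (2.09, 2.84 and 0 CPM), and was at 33.6, 32.7 and 26.1 CPM with Dox. It rose by 4.24 ± 0.70 (SE) on the log2 scale (edgeR adjusted p = 0.000844), with a wide error. Without replicate 6, the library with no count, the log2 fold change was 3.56, and limma-voom gave 5.27. Itgb3 had 3.04, 2.66 and 4.37 counts for each Itga2b count with Dox, and 4.21 and 3.36 in the libraries without Dox that had any Itga2b count.

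Within the von Willebrand factor receptor the subunits did not all pass the test. Gp9, a small subunit needed for assembly, was at 3.58, 5.07 and 2.03 CPM without Dox and at 12.9, 10.7 and 11.6 CPM with Dox. The groups did not overlap, and the libraries with Dox were close together (log2 fold change 1.72 ± 0.48 (SE), edgeR adjusted p = 0.0148). With the trend in transcript length removed its log2 fold change was 2.66. Gp1bb, the beta chain linked to the ligand-binding chain, was at 1.79, 5.07 and 1.19 CPM without Dox and at 5.31, 23.4 and 16.1 CPM with Dox. The lowest library with Dox was just above the highest without Dox. It rose by 2.50 ± 0.69 (SE) on the log2 scale (edgeR adjusted p = 0.0147), and by 3.22 without replicate 5.

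Gp1ba, the chain that binds von Willebrand factor, was at 1.64, 2.84 and 4.24 CPM without Dox and at 1.497, 2.68 and 9.49 CPM with Dox. The groups overlapped, and replicate 12 alone raised the mean with Dox (log2 fold change 0.65 ± 0.84 (SE), edgeR adjusted p = 0.561). Without that library the log2 fold change was -0.48. Gp1ba had 11 to 25 counts per library without Dox and 11, 26 and 72 with Dox, a wide spread, and the data allow no statement on a change in either direction. Gp9 lost its call when replicate 4 or 6 was left out, at log2 fold changes of 1.68 and 1.36 (edgeR adjusted p = 0.0647 and 0.0613). Gp1bb lost its call without replicate 4, 6 or 11, at log2 fold changes of 2.21, 2.05 and 1.98 (edgeR adjusted p = 0.0731, 0.0698 and 0.0599). With limma-voom the Gp1bb log2 fold change was 2.61 (adjusted p = 0.0641). Gp5, the remaining subunit and part of the wider list described below, was at 0.895, 2.03 and 1.86 CPM without Dox and at 22.3, 38.5 and 31.9 CPM with Dox, a clear separation (log2 fold change 4.29 ± 0.42 (SE), edgeR adjusted p = 3.63e-05).

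The largest fold change of the 9 genes was that of Gp6, the platelet collagen receptor. Its counts were 3, 4 and 0 in the group without Dox against 206, 191 and 86, or 0.448, 0.811 and 0 CPM against 28.0, 19.7 and 11.3 CPM. The libraries without Dox were near the limit that 3 counts set in them (0.448 to 0.608 normalized CPM per library, for counting error only), so the size of the fold is uncertain while the direction is shared by all 6 libraries (log2 fold change 5.54 ± 0.75 (SE), edgeR adjusted p = 0.000245). It was 6.22 without replicate 5 and 4.89 without replicate 6. Fcer1g, the signalling chain that glycoprotein VI needs and that myeloid cells also express, did not rise with it. Fcer1g was at 21.2, 20.1 and 29.0 CPM without Dox and at 17.1, 11.3 and 19.5 CPM with Dox (log2 fold change -0.55 ± 0.31 (SE), edgeR adjusted p = 0.176). Its groups did not overlap, with the libraries on Dox lower, but the difference did not pass the test, and its sign turned in 1 other fit.

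Vwf, the adhesion ligand, is made by endothelial cells as well as by megakaryocytes. It was at 2.69, 0.608 and 2.03 CPM without Dox and at 12.4, 14.0 and 11.6 CPM with Dox. The groups did not overlap, and the libraries with Dox differed little from one another (log2 fold change 2.80 ± 0.57 (SE), edgeR adjusted p = 0.00297). The log2 fold change was 2.14 with the trend in transcript length removed. Endothelial markers were examined beside it. Of 14 such genes 12 were tested, and 5 rose (Kdr, Plvap, Stab2, Cldn5 and Flt1), 0 fell and 7 did not pass, beside 23.6% and 22.1% of all tested genes. Stab2, a scavenger receptor of sinusoidal endothelium, was at 8.31 to 12.4 CPM without Dox and at 37.6 to 56.5 CPM with Dox, while Cdh5, the endothelial cadherin, overlapped between the groups (log2 fold change -0.05). Their summed level was 138.6 to 155.0 CPM without Dox and 260.6 to 315.5 CPM with Dox, 2.04 times as high on average, while Vwf was 7.13 times as high. Emcn, an endothelial marker, had 1 count in 1 library and 0 in the others. The part of endothelial cells in the Vwf result was not tested.

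**Figure D2:**
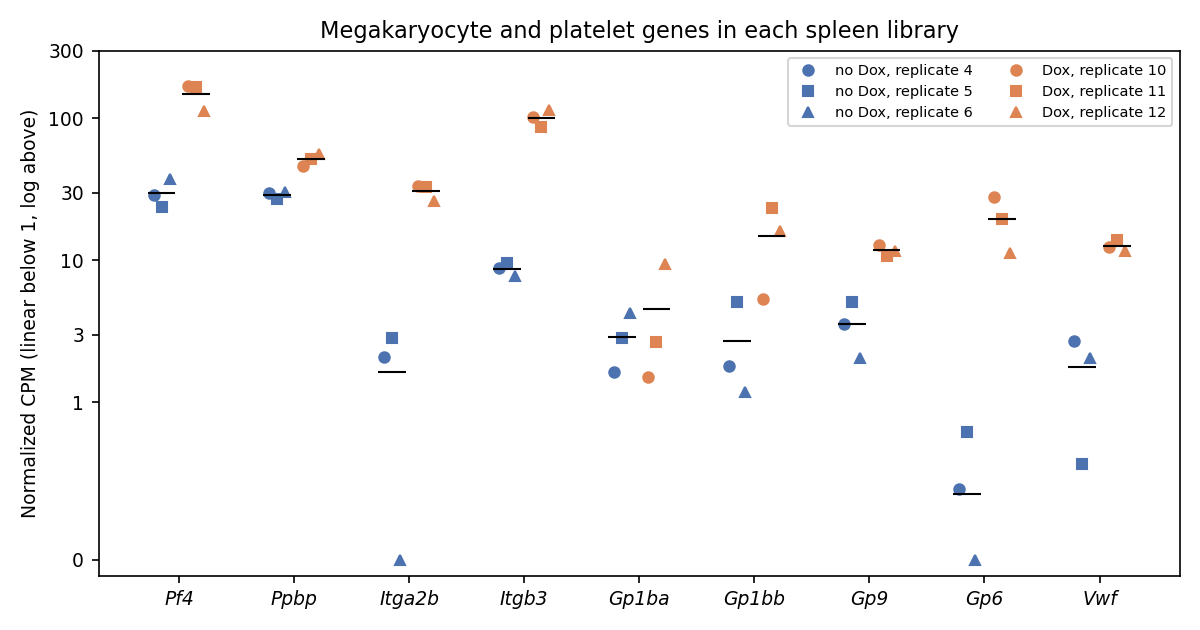
Normalized CPM (y axis, linear below 1 and logarithmic above) of the 9 genes (x axis) in each library, blue without Dox and orange with Dox, with a bar at each group mean and a marker shape per replicate. All genes but Gp1ba show groups that do not overlap, and Itga2b and Gp6 include 1 library without Dox at 0.

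The order of the levels differed between the groups. These libraries count the 3′ ends of transcripts, in principle about 1 fragment for each transcript, so CPM was compared between genes without scaling by length. Removing a trend in transcript length still moved the log2 fold changes, from 0.82 to 1.65 for Ppbp and from 3.54 to 3.17 for Itgb3. The order was not worked out with that trend removed. Without Dox, Pf4 (30.1 ± 6.8 CPM, SD, n = 3) and Ppbp (29.1 ± 1.9) led with overlapping libraries. Itgb3 (8.71 ± 0.87) came next and was apart from both Ppbp and Gp9. From Gp9 (3.56 ± 1.52) through Gp1ba, Gp1bb, Vwf, Itga2b and Gp6 (0.419 ± 0.406), each gene overlapped with its neighbour.

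With Dox, Pf4 (149.6 ± 32.2 CPM, SD, n = 3) and Itgb3 (101.1 ± 13.6) overlapped at the top. Ppbp (51.4 ± 4.6) fell to the third place and was apart from its neighbours on both sides. Itga2b (30.8 ± 4.1), Gp6 (19.7 ± 8.4), Gp1bb (14.9 ± 9.1), Vwf (12.7 ± 1.2) and Gp9 (11.7 ± 1.1) followed, each overlapping with the next. Gp1ba (4.55 ± 4.31) was last, below every library of Gp9. Gp6 thus moved from the last place to the fifth.

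A wider list of 50 other genes of megakaryocytes and platelets, written from general knowledge, was described by role. Of its 49 tested genes 32 rose, 3 fell and 14 did not pass (edgeR, adjusted p under 0.05), beside 23.6% and 22.1% of all tested genes. The median log2 fold change was 1.90, and 33 of the 49 would have passed the low-count filter without the Dox libraries.

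Of the 7 other tested receptors that are mostly found on megakaryocytes and platelets, 4 rose and 1 fell, beside 23.6% and 22.1% of all tested genes. The 4 that rose (Gp5, F2rl2, Mpig6b and Treml1) passed the low-count filter only through the libraries with Dox, so their count is a description. Treml1, a receptor of the platelet granule membrane, was at 1.34, 1.42 and 1.53 CPM without Dox and at 40.1, 35.3 and 11.6 CPM with Dox, and its log2 fold change of 4.33 ran from 4.0 to 5.05 over 15 other fits. Gp5 is given above, and the thrombin receptor gene F2rl2 rose by 3.0 ± 0.70 (SE) and the inhibitory receptor gene Mpig6b by 3.30 ± 1.05 (SE) on the log2 scale (edgeR adjusted p = 0.00594 and 0.0267). The Mpig6b call was lost when any 1 of replicates 5, 6 and 10 was left out, and its log2 fold change ran from 2.64 to 4.68 over 15 other fits. The podoplanin receptor gene Clec1b (log2 fold change 0.78 ± 0.44 (SE), edgeR adjusted p = 0.177) and the ADP receptor gene P2ry12 (0.80 ± 0.52 (SE), adjusted p = 0.240) did not pass.

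The gene that fell was F2rl3, which encodes PAR4, the thrombin receptor that signals in mouse platelets. F2rl3 was at 9.85, 4.86 and 5.42 CPM without Dox and at 1.91, 1.34 and 2.11 CPM with Dox. The groups did not overlap, opposite in direction to its cofactor gene F2rl2 (log2 fold change of F2rl3 -1.91 ± 0.65 (SE), edgeR adjusted p = 0.0355). The direction held in all 16 other fits, but the call held in only 8, and adjusted p ran from 0.00766 to 0.241. Any 1 of replicates 4, 5 and 6 without Dox, or replicate 11 with Dox, ended the call when left out.

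All 5 genes of the cytoskeleton and signalling role that the list marks as mostly of the lineage rose, beside 23.6% of all tested genes. However, Tubb1 and Alox12 passed the low-count filter only through the libraries with Dox. The mark came from general knowledge, and the part of other cells in these levels was not tested. Tubb1, the beta-tubulin of the platelet's marginal band, was counted 0, 0 and 5 times in the group without Dox against 39, 87 and 112 times (log2 fold change 5.0 ± 1.10 (SE), edgeR adjusted p = 0.0045). That fold rests on 5 counts in 1 library without Dox, and it ran from 4.36 to 9.1 over 15 other fits. Cavin2, a caveolar coat gene abundant in platelets, was at 13.9, 9.32 and 12.04 CPM without Dox and at 201.3, 176.4 and 184.0 CPM with Dox, with a wide gap between the groups (3.99 ± 0.21 (SE), adjusted p = 1.66e-06). Alox12, the platelet lipoxygenase, rose by 3.19 ± 0.47 (SE) and Rgs18, a brake on receptor signalling, by 2.89 ± 0.32 (SE) on the log2 scale. Tuba8 rose by 1.73 ± 0.50 (SE), a call lost when any 1 of replicates 5, 6 and 11 was left out. Of the 9 cytoskeleton and signalling genes listed as shared with other cells, 6 rose and 1, the membrane-bending protein gene Bin2, fell. Of all tested genes 23.6% rose and 22.1% fell.

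Of 10 granule genes 8 rose and none fell (edgeR), beside 23.6% and 22.1% of all tested genes, and 6 of the 10 would have passed the low-count filter without the libraries with Dox. The 2 that did not pass, Selp and Nbeal2, had log2 fold changes of 1.27 ± 0.73 and 0.23 ± 0.47 (SE), at edgeR adjusted p of 0.183 and 0.713. The sign of Nbeal2 turned in 2 of 16 other fits. Granule genes were not split by whether other cells share them, so their count is not particular to the lineage. Of 8 receptors shared with other cells, Itga2, the collagen-binding integrin chain, and Cd226 rose, none fell, and 6 did not pass. A count of 2 in 8 is near the 23.6% of all tested genes that rose, and both genes passed the low-count filter only through the libraries with Dox. The Cd226 call was lost with limma-voom (adjusted p = 0.0736). Among those 6 was Tbxa2r, the thromboxane receptor, at 12.4, 10.7 and 11.2 CPM without Dox and 7.08, 1.54 and 1.19 CPM with Dox (log2 fold change -1.81 ± 0.68 (SE), edgeR adjusted p = 0.0518). Its groups did not overlap, it passed in 6 of 15 other fits, and its log2 fold change ran from -3.07 to -1.39 over them.

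Of 10 transcription factors of the lineage, 7 rose, among them Fli1, Nfe2, Gfi1b, Tal1, Zfpm1 and Meis1, beside 23.6% of all tested genes. Meis1 passed the low-count filter only through the libraries with Dox. Zfpm1, which encodes FOG1, the partner of GATA1, was at 124.5, 167.2 and 162.9 CPM without Dox and at 504.1, 559.6 and 693.4 CPM with Dox (log2 fold change 1.95 ± 0.19 (SE), edgeR adjusted p = 3.05e-05). Fli1, an ETS factor that B cells, endothelium and T cells also express, was at 50.7, 40.7 and 38.5 CPM without Dox and at 196.4, 211.5 and 84.1 CPM with Dox. Replicate 12 was the lowest with Dox for Fli1, as it was for Pf4, Gp6 and Treml1. It was the highest with Dox for Zfpm1, Ppbp, Itgb3, Gp1ba and Tubb1, so the libraries with Dox had no common order.

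The other 3 were not called higher. Gata1, shared by megakaryocytes and red cell precursors, was at 19.5, 19.5 and 23.2 CPM without Dox and at 22.3, 15.2 and 30.7 CPM with Dox. The groups overlapped (log2 fold change 0.13 ± 0.31 (SE), edgeR adjusted p = 0.754), and the sign turned in 2 of 16 other fits. Gata2 had 5 to 53 counts per library, and its groups overlapped (0.97 ± 0.95 (SE), adjusted p = 0.435). Runx1, which T cells also use, fell: its log2 fold change was -0.70 ± 0.18 (SE), at an edgeR adjusted p of 0.0113. That call was lost with scaling by library size only and when replicate 4 was left out.

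**Figure D3:**
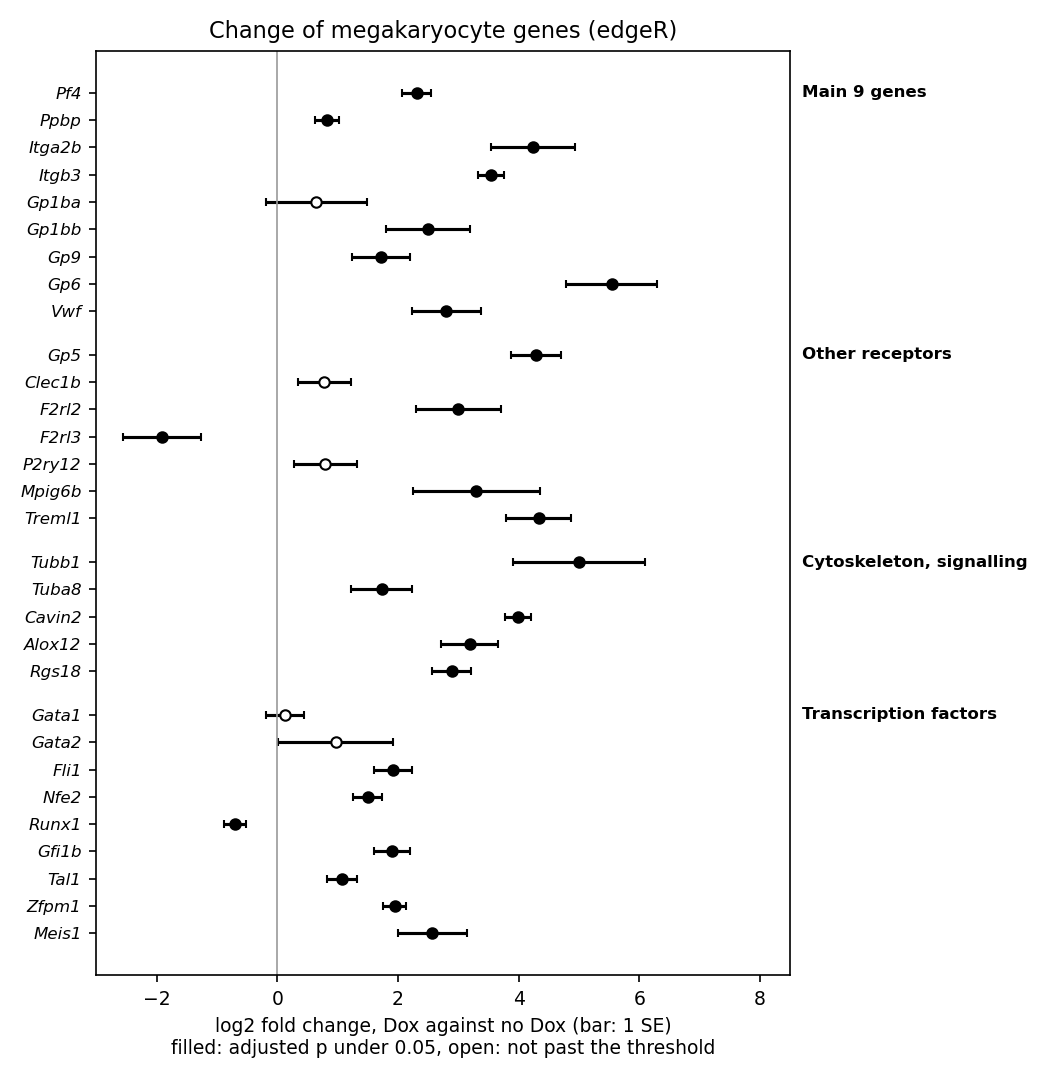
Log2 fold change with Dox against without Dox (x axis, bars 1 SE, edgeR) for the 9 genes and for tested genes of 3 further roles, 1 transcription factor not shown (y axis); filled points passed an adjusted p of 0.05 and open points did not. Most points lie right of 0, with F2rl3 and Runx1 to the left and Gp1ba, Clec1b, P2ry12, Gata1 and Gata2 open.

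Markers of other spleen cells were counted in the same libraries, where 23.6% of all tested genes rose and 22.1% fell. Neutrophil markers rose in 12 of 12 genes, from a summed 55.3 to 71.6 CPM without Dox to 2292 to 2432 CPM with Dox, and B cell markers in 12 of 12, from 40.4 to 47.8 CPM to 2404 to 2560 CPM. Only 4 of the neutrophil and 6 of the B cell markers would have passed the low-count filter on the libraries without Dox, so these counts too are descriptions. Erythroid markers, from the lineage closest to megakaryocytes, rose in 6 of 12 and fell in 2, with a summed level of 94291 to 104372 CPM and 133598 to 143495 CPM. Of that sum, 98.5% to 98.9% came from 4 haemoglobin genes, of which Hba-a1 and Hba-a2 rose by 0.95 and 1.01 on the log2 scale, Hbb-bs fell (-1.23) and Hbb-bt did not pass (-0.24). The other 8 erythroid markers summed to 1136 to 1443 CPM without Dox and 1832 to 1924 CPM with Dox, with 4 of them higher and 1 lower. Macrophage markers rose in 2 of 12 and fell in 4. Of 12 T cell markers 10 fell, from a summed 1767 to 1851 CPM to 231.0 to 329.1 CPM. The part of these shifts in the megakaryocyte results was not tested.

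Set against these lists, the sum of the 9 genes had a higher fold than the erythroid sum and a lower one than the neutrophil sum. Their sum was 0.763, 0.755 and 0.903 CPM for each 1000 CPM of erythroid markers without Dox and 2.89, 2.85 and 2.76 with Dox. Against the 8 that are not haemoglobin it was 70.2, 62.5 and 59.0 CPM for each 1000 CPM without Dox and 221.8, 212.6 and 201.1 CPM with Dox. For each 1000 CPM of neutrophil markers it was 1112, 1120 and 1540 CPM without Dox and 176.0, 178.4 and 151.5 CPM with Dox. For each 1000 CPM of endothelial markers it was 514.0, 559.9 and 612.9 CPM and 1581, 1332 and 1168 CPM. The groups were apart in each of these ratios, at the lowest permutation p that the design gives (exact, two-sided, 0.1 each).

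**Figure D4:**
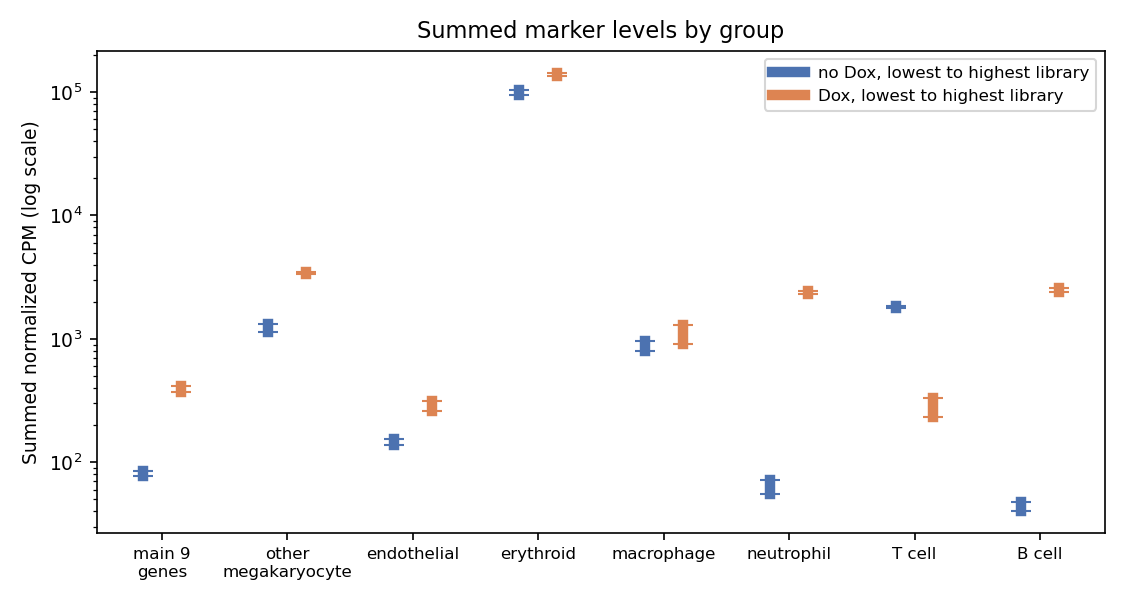
Summed normalized CPM (y axis, log scale) of the 9 genes, the 50 other megakaryocyte genes and 6 marker lists (x axis), from the lowest to the highest of 3 libraries per group. The sum of the 9 genes was 4.91 times as high with Dox, the erythroid sum 1.39 times and the neutrophil sum 36.0 times, while the T cell sum was lower.

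Replicates of the 9 genes varied by very different amounts. The coefficient of variation was lowest for Ppbp (6.42% without Dox and 9.0% with Dox), and at or under 13.4% with Dox for Itgb3, Itga2b, Vwf and Gp9. It was 42.4% for Gp6, 60.9% for Gp1bb and 94.7% for Gp1ba with Dox. These 3 genes had no library in common at the top: replicate 10 was the highest for Gp6, replicate 11 for Gp1bb and replicate 12 for Gp1ba.

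The genes whose profile over the 6 libraries was most like that of Pf4, the most abundant of the 9, were sought next. Likeness was the root mean square difference of log2 CPM after centring each gene on its own mean, over 7054 other genes of at least median level. The closest were Bcl2, the survival gene (0.068), Zbtb46, a dendritic cell transcription factor (0.093), Ly86, a B cell and myeloid surface protein gene (0.10), Zbed6 (0.128), whose model lies within Zc3h11a so that reads of the 2 may be mixed, and Zfp526 (0.148). Bcl2 was at 23.7, 21.9 and 31.7 CPM without Dox and at 151.6, 152.8 and 106.1 CPM with Dox. Its lower level in replicate 12, as in Pf4, follows from how it was chosen and is not a separate observation. In all, 31 genes lay within 0.25 of Pf4. Itgb3 was at 0.701, Ppbp at 0.797 and Itga2b at 1.427, ranks 1055, 1386 and 4033, and the other 5 were below the median level and were not compared.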

How the data were processed

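The authors deposited 1 table of raw counts per Entrez gene ID, 1 column for each of 6 libraries made with a kit that reads the 3′ ends of mRNA, per the labels' protocols. STAR, featureCounts and the GRCm38 build are named in the submitters' processing notes; their versions, the annotation, strand use and the treatment of multi-mapping reads are not given in the sources used here. All columns matched a library title. Symbols came from the RefSeq gene table (GRCm38.p6), which named 39374 of 40808 IDs (96.5%), and strands from GENCODE.

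Counts were tested in R 4.3.3 with edgeR 4.0.16: filterByExpr (minimum count 10, minimum total 15), TMM factors, a quasi-likelihood F-test of Dox against no Dox on all 6 libraries, and Benjamini-Hochberg adjustment over every gene tested, called at 0.05. The SE of a log2 fold change is its size divided by the square root of its F statistic. The code was tested on simulated data. Sums and ratios were compared by exact two-sided permutation over libraries. Profiles used log2(CPM + 0.5). Floors of 3 counts cover counting error only, since reads are not independent molecules.

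The 9 genes and all lists were chosen with earlier results of these data known. The text names the 9 genes and the 5 genes most like the most abundant of the 9. It also names the genes of 3 roles in a list of other megakaryocyte genes. These are receptors and cytoskeleton genes that the list marks as mostly of the lineage, and transcription factors. Fcer1g, Selp, Nbeal2, Tbxa2r, Itga2, Cd226, Bin2 and the endothelial and erythroid markers were named with their values already known. One symbol of the 139 in the lists was not found, and the single results of some listed genes are not reported here. Alternatives were other scaling, other filters, haemoglobin genes left out, DESeq2 1.42.0, limma-voom (limma 3.58.1) with and without weights per group, a threshold of 0.01 and each library left out. Removing a trend with transcript length was added after the data were seen.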

Additional observations from a re-analysis of the deposited data

How the results depend on the processing

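No paired analysis was possible because replicate numbers do not recur between no Dox and Dox. The 8 genes called higher became 4 with at least 10 counts required in every library, which left 5 of the 9 to test, and 6 to 8 with 1 library left out; 0 fell in any fit. Of the wider list, 20 rose with that filter in place of 32 (28 to 33 with 1 library left out), and 1 fell in place of 3 with library size only and at an adjusted p under 0.01 (1 to 4 with 1 library left out; 1 without replicate 4 of the group without Dox). At that stricter threshold 2200 tested genes rose in place of 3324. With library size only 4257 rose and 2359 fell in place of 3324 and 3114, and with 1 library left out 2284 to 3396 rose and 2459 to 3629 fell. The median log2 fold change of the 9 genes, 2.50, was 2.81 with library size only, which moved the median of all genes from 0.07 to 0.38. It was 2.34 with no low-count filter, 1.84 where 10 counts were required in each library, 2.89 with the length trend removed, and 2.20 to 2.79 with 1 library left out. The log2 fold of the summed level, 2.29, was 2.39 with upper-quartile factors, 2.61 with library size only and 2.27 to 2.34 with 1 library left out. Gp1ba turned to -0.48 without replicate 12 with Dox and reached 1.04 without replicate 10. Pf4, Itga2b, Itgb3, Gp6 and Vwf kept their direction and call in each fit that tested them. Itga2b, Gp1ba, Gp1bb, Gp6 and Vwf had 0 to 25 counts per library without Dox, which limits the precision of their fold changes.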
